A study of Mus musculus with 4 samples.

Results

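The 7 small leucine-rich proteoglycans examined here were decorin (Dcn), lumican (Lum), biglycan (Bgn), fibromodulin (Fmod), osteoglycin (Ogn), PRELP (Prelp) and asporin (Aspn). Their rows were taken by gene symbol, and each symbol marked 1 of the 31053 genes counted. All samples were stroma of the submandibular gland, which makes much of the saliva at rest, of female C57BL6/J mice, taken after magnetic beads had removed EpCAM-bearing epithelial cells and Ter119-bearing red cells and a kit had removed dead cells. In 2 libraries, from mice aged 14 weeks, a metal clip had closed the main ducts for 14 days and had then been taken off for 5 days before harvest (deligated). In 2 further libraries, from mice aged 12 weeks, no surgery was done (homeostatic). Ligation of the ducts is a model of gland atrophy, and removal of the clip is a model of regrowth, so the deligated libraries sample stroma early after release. Age differed along with the surgery, and no library from sham-operated or ligated mice was analysed here. The protocol speaks of glands in the plural without the number of animals behind a library, and of sublingual beside submandibular glands. A p-value below therefore measures the spread between libraries, which may be technical.

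Small leucine-rich proteoglycans are secreted proteins with a curved core of leucine-rich repeats that bind collagen fibrils and set their diameter and spacing. Decorin and biglycan carry chondroitin or dermatan sulfate chains, and the closely related asporin carries none and has a stretch of aspartic acids near its start. Lumican and fibromodulin can carry keratan sulfate, PRELP has a basic stretch that binds heparin-like chains of basement membranes, and osteoglycin is also called mimecan. Beyond collagen, decorin, biglycan and asporin bind TGF-beta, and free biglycan can act on Toll-like receptors. Fibroblasts are the usual source of these proteins in soft tissue.

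The libraries held 4357 and 7823 cells (deligated 1 and 2) and 10615 and 10900 cells (homeostatic 1 and 2) after filtering, with medians of 6013, 5155, 2873 and 2721.5 UMIs per cell (unique molecular identifiers, which count the RNA molecules caught). Pairs of libraries shared 14 to 54 cell barcodes, at most 0.482% of the smaller library. Per the file headers the deligated matrices came from Cell Ranger 6.0.1 and the homeostatic ones from Cell Ranger 7.0.0, so software version, age and surgery cannot be told apart. In all 3 cell classes tested, genes with longer introns tended to have lower fold changes in the deligated libraries (Spearman rho -0.54 across 11524 genes in fibroblast-like cells, as a description, since genes are not replicates). Total intron length of the members ran from 5.13 kb for Lum to 32.7 kb for Dcn. Hemoglobin and Alas2 UMIs, a sign of red cell RNA, stood at 2459 CPM in the fibroblast-like cells of deligated 2 and at 56.0 to 392 CPM in those of the other libraries, where CPM is a gene's UMIs scaled to a total of 1e+06 UMIs for a cell class in a library. Deligated 2 also held the highest levels of Dcn, Ogn and Prelp in that class, and the part of red cell RNA in them was not tested.

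Of the 7 genes, 6 lie in pairs of neighbours on the mouse genome (GRCm38, GENCODE M21). Dcn (ENSMUSG00000019929, chr10:97479609-97518143) and Lum (ENSMUSG00000036446, chr10:97565128-97572703) are 46.984 kb apart on the plus strand, with no counted gene between them. Prelp (ENSMUSG00000041577, chr1:133910304-133921414, minus strand) and Fmod (ENSMUSG00000041559, chr1:134037254-134048277, plus strand) are 115.839 kb apart, with Gm1627 between them. Aspn (ENSMUSG00000021388, chr13:49544443-49567565) and Ogn (ENSMUSG00000021390, chr13:49608046-49624501) are 40.48 kb apart on the plus strand, with Omd, the gene of osteomodulin, between them. Bgn (ENSMUSG00000031375, chrX:73483602-73495933, plus strand) stands alone. Aspn and Ogn overlap Cenpp on the opposite strand, and Prelp overlaps Gm15851 on the opposite strand. The headers do not state whether counting used strand, so the counts of these 3 genes could include reads of the antisense partner.

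The promoters of Bgn, Fmod and Aspn are shown because these 3 genes had the largest increases in fibroblast-like cells after deligation, as described below. Each sequence runs from 250 bases before to 50 bases after the annotated start (RefSeq, GRCm38.p6; plus strand), at chrX:73483351-73483650, chr1:134037004-134037303 and chr13:49544193-49544492 respectively, and capitals mark matches to a TATA box.
Bgn promoter: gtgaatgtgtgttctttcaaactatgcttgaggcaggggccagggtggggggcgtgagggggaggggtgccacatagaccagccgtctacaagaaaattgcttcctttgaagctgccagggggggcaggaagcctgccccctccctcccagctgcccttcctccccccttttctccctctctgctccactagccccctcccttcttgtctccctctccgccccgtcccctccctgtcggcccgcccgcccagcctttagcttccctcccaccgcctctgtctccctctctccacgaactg
Fmod promoter: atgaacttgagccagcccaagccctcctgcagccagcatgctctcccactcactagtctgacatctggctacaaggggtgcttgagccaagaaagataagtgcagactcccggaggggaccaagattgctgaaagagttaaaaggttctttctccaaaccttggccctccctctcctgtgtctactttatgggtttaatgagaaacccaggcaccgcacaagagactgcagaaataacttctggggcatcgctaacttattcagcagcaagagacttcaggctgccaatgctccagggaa
Aspn promoter: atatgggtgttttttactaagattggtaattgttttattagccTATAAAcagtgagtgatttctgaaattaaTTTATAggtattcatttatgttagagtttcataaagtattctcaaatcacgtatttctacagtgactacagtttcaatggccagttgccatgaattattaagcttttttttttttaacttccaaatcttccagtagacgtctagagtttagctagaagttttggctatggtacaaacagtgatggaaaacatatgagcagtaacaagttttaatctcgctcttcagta
The 3 sequences differ in base composition, with 63.7% G or C for Bgn, 51% for Fmod and 31% for Aspn. TATAAA, searched on both strands, was found in Aspn alone of the 3, starting 207 and 178 bases before the start, and occurs in 13.6% of the 32851 promoters of the same length. Neither the AP-1 letters TGANTCA (7.81% of promoters) nor the SMAD half-site letters CAGACA (21.0% of promoters) occur in these windows. The promoters of Ogn and Prelp, not shown, were searched as well. Ogn had TATAAA matches starting 229 and 227 bases before the start, and Prelp had CAGACA matches starting 15 and 25 bases after it. Of the 7 members, 5 had a promoter in the table used, and Dcn and Lum had none there.

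Cells were clustered without the 7 members among the clustering genes, and classes were named from other markers, so the members' levels play no part in the class names. Fibroblast-like cells numbered 360, 741, 302 and 286 in deligated 1, deligated 2, homeostatic 1 and homeostatic 2. In the deligated libraries nearly all of them lay in cluster 8, led by Cilp, Mfap4 and Spp1, and in the homeostatic libraries in cluster 12, led by Lsamp, Astn2 and Eda. All 10 fibroblast markers of the list used were detected in this class, among them Pdgfra and Col1a1. Its median depth was 13064.5, 9071, 6672.5 and 6540 UMIs per cell. Together the 7 members made up 2.15%, 2.53%, 2.09% and 2.13% of all UMIs of the class in these libraries. Dcn alone made up 1.48%, 1.82%, 1.65% and 1.67%, so the sum, which differed little between the groups, is mostly Dcn.

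Dcn, the most studied collagen-binding member, was found almost only in fibroblast-like cells. These cells held 99.4%, 98.3%, 97.0% and 98.2% of all Dcn UMIs in kept cells of the 4 libraries. Its level there was 14752 and 18246 CPM in the deligated and 16461 and 16694 CPM in the homeostatic libraries. The next named class, mural-like cells (pericytes and vascular smooth muscle), reached 19.3 and 72.7 CPM against 18.2 and 70.6 CPM, and the cells of unnamed clusters 161 and 92.6 against 72.0 and 35.6 CPM. In homeostatic 2, 35 of the 45 mural Dcn UMIs came from 1 cell, whereas in deligated 2 the 177 UMIs were spread over 123 cells. Below fibroblast-like cells the deligated ranges of neighbouring classes overlapped down to B cell-like cells, and Dcn gave no further order of classes there.

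Lum, a keratan sulfate proteoglycan known for ordering collagen in the cornea, followed the same distribution. Fibroblast-like cells held 96.9% to 99.1% of its UMIs in the 4 libraries. No other named class exceeded 17.7 CPM in any library, against 2166 to 2912 CPM in fibroblast-like cells.

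Bgn was spread over more classes. Its order was fibroblast-like, mural-like, Schwann-like and then endothelial-like cells in both groups, and no neighbouring ranges among these 4 classes overlapped. Fibroblast-like cells held 91.1% and 92.0% of Bgn UMIs in the deligated libraries and 84.8% and 85.8% in the homeostatic ones. Endothelial-like cells held 2.55% and 1.95% against 7.66% and 7.89%, so the homeostatic libraries drew a larger share of Bgn from endothelium. These shares also depend on the mix of cells. Fibroblast-like cells were 8.26% and 9.47% of kept cells in the deligated and 2.85% and 2.62% in the homeostatic libraries.

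Aspn was the only member whose highest level lay in mural-like cells in both groups. Its mural level was 479 and 538 CPM in the deligated and 612 and 614 CPM in the homeostatic libraries, against 106, 90.2, 47.3 and 34.2 CPM in fibroblast-like cells. Mural-like cells held 68.0% and 67.5% of Aspn UMIs in the deligated and 78.3% and 83.0% in the homeostatic libraries. The UMIs were spread over most mural-like cells: 87.3%, 84.2%, 84.7% and 84.0% of these cells carried an Aspn UMI at median depths of 6557, 4889, 4195 and 5305 UMIs. In natural killer (NK)-like and other innate lymphoid-like cells, which should lack the gene, the share was 0.178% to 0.283% at median depths of 5525.5 to 6306 UMIs. With each cell thinned to 1000 UMIs the mural shares were 36.8%, 41.2%, 46.9% and 49.1%.

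Ogn and Prelp were highest in fibroblast-like cells and, among named classes, second in mural-like cells, with no overlap between these ranges. Fibroblast-like cells held 93.8% to 96.3% of Ogn UMIs and 85.9% to 89.6% of Prelp UMIs. Fmod, a member best known from tendon and cartilage, was sparse everywhere, with 153 and 164 UMIs in all kept cells of the deligated and 18 and 7 in those of the homeostatic libraries. It was highest in fibroblast-like cells in the deligated group (25.9 and 17.7 CPM) and in mural-like cells in the homeostatic group (7.57 and 7.85 CPM).

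**Figure D1:**
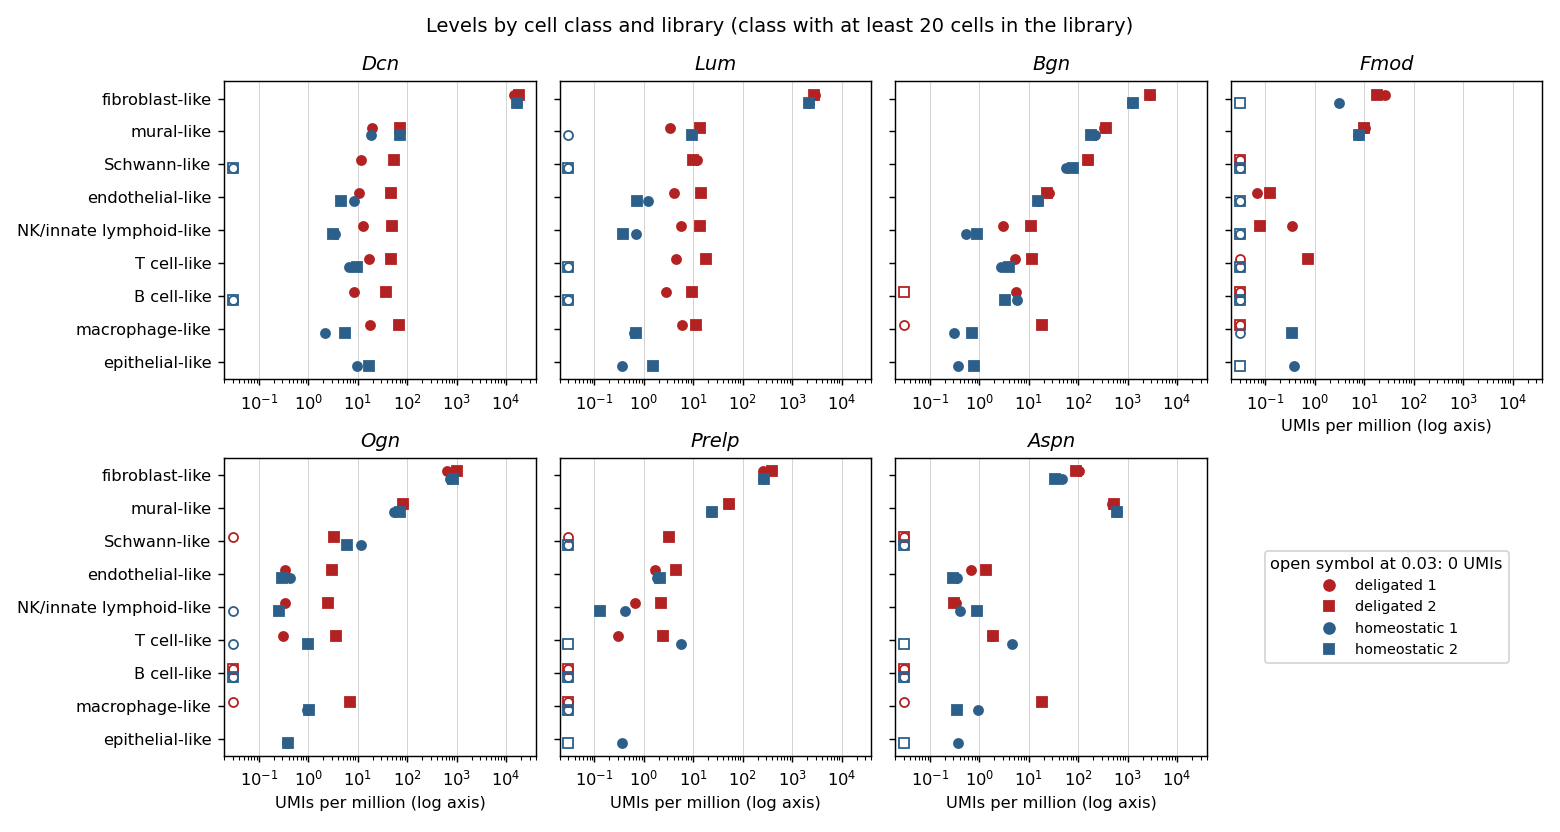
Level of each member in CPM of a cell class (log axis) for 9 classes, with 1 symbol per library (red deligated, blue homeostatic, circle replicate 1, square replicate 2, open symbol at 0.03 for 0 UMIs). Dcn and Lum stand far to the right in fibroblast-like cells alone, Bgn falls off in steps from fibroblast-like to endothelial-like cells, and Aspn is highest in mural-like cells.

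**Figure D2:**
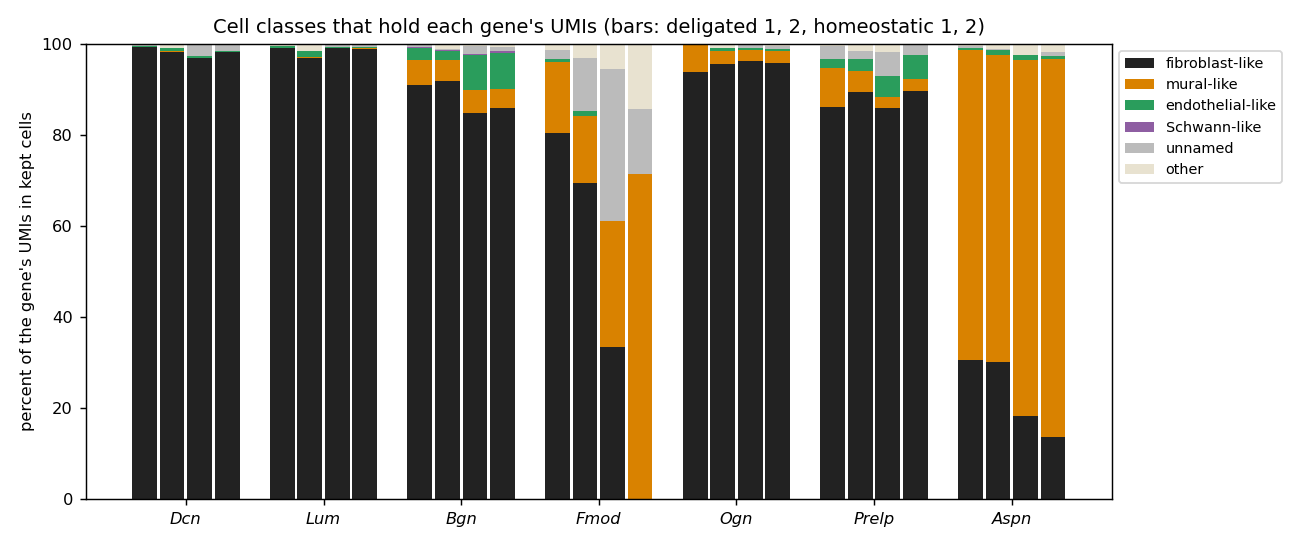
Percent of each member's UMIs in kept cells that came from each cell class, with 1 stacked bar per library in the order deligated 1, deligated 2, homeostatic 1, homeostatic 2. Fibroblast-like cells hold most UMIs of Dcn, Lum, Bgn, Ogn and Prelp, mural-like cells hold 67.5% to 83.0% of Aspn, and the homeostatic Fmod bars rest on 18 and 7 UMIs.

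The unnamed clusters had low UMI counts, mixed markers or under 3 markers of any class. They held 2.69% and 4.18% of kept cells in the deligated and 31.5% and 32.9% in the homeostatic libraries. Of the Dcn UMIs they held 1.18% to 2.44% in the homeostatic and 0.110% to 0.156% in the deligated libraries. For Lum, Bgn, Ogn and Aspn they held at most 1.76% in any library, for Prelp at most 5.43%, and for Fmod up to 33.3% (homeostatic 1, of 18 UMIs). Naming therefore moved few UMIs other than those of Fmod.

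The main comparison asked which members differed between deligated and homeostatic fibroblast-like cells. Bgn, Aspn, Fmod and Lum were higher after deligation, and no call was made for Dcn, Ogn and Prelp. In edgeR's quasi-likelihood test on counts summed per library, 4 of the 7 members were called higher and none lower at an adjusted p under 0.05. Of all 11529 genes tested in this class, 26.7% were called, 8.59% higher and 18.1% lower. The median log2 fold change was 0.44 over the 7 members and 0.008 over all genes tested.

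Bgn was at 2769 and 2808 CPM in the deligated and at 1210 and 1252 CPM in the homeostatic libraries. The replicates of each group lay close together and the groups stood far apart. The mean was 2788 ± 27.6 against 1231 ± 29.2 CPM (SD, n = 2 each), and the log2 fold change was 1.24 ± 0.12 (SE; adjusted p 4.68e-05, edgeR). The direction and the call held under all 17 alternatives, with log2 fold changes of 1.03 to 1.64. A Bgn UMI also appeared in more cells at equal depth: in cells thinned to 1000 UMIs, 84.7% and 89.6% of deligated against 65.3% and 65.1% of homeostatic fibroblast-like cells had one (99.7%, 99.5%, 91.4% and 94.1% before thinning, and 0.378% to 6.70% of the NK and innate lymphoid-like cells).

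Aspn, the second TGF-beta-binding member that rose, was at 106 and 90.2 CPM against 47.3 and 34.2 CPM. Both deligated libraries lay above both homeostatic ones. The mean was 97.9 ± 11.0 against 40.8 ± 9.25 CPM (SD, n = 2 each), and the log2 fold change was 1.32 ± 0.19 (SE; adjusted p 0.000625, edgeR). Among the 17 alternatives the call was lost in the subset of cells with a Pi16 or Dpp4 UMI, described further on (log2 fold change -0.19, edgeR adjusted p 0.705). An Aspn UMI was seen in 52.2% and 37.9% of deligated and in 13.2% and 13.3% of homeostatic fibroblast-like cells, and after thinning in 7.50% and 7.49% against 4.04% and 2.49%. Because mural-like cells hold more Aspn, mural RNA in the fibroblast-like cells was measured. The 11 mural markers summed to 448, 467, 297 and 272 CPM in fibroblast-like cells, all 11 detected and 8 of them higher in both deligated libraries. In mural-like cells they summed to 28512 to 29690 CPM. Aspn itself stood at 34.2 to 106 CPM in fibroblast-like and at 479 to 614 CPM in mural-like cells. The part of mural RNA in the Aspn difference was not tested.

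Fmod was counted 123 and 114 times in the deligated and 6 and 0 times in the homeostatic fibroblast-like cells. In CPM this was 25.9 and 17.7 against 3.02 and 0, where 0 UMIs in homeostatic 2 allow a level of up to 1.61 CPM (3 counts). Taken as pooled counts, the deligated level was 13.6 times the homeostatic one, with an exact 95% interval of 6.15 to 37.4 that covers counting error only. The fitted log2 fold change was 3.83 ± 0.60 (SE; adjusted p 0.00111, edgeR). DESeq2's Wald test gave 3.94 with an adjusted p of 0.110. Without homeostatic 1, which leaves only the library at 0, edgeR gave 9.58, a value set by the prior count. The UMIs were held by few cells, 15.8% and 9.18% of the deligated fibroblast-like cells, against 1.66% and 0% of the homeostatic ones and at most 0.220% of NK and innate lymphoid-like cells. In cells thinned to 1000 UMIs the shares were 1.67% and 1.94% against 1.01% and 0%. The 4 tendon markers summed to 67.6 and 31.1 against 20.6 and 9.63 CPM in the same cells, with none of the 4 at 0 and 1 of the 4 higher in both deligated libraries, and their part in the Fmod result was not tested.

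Lum was at 2912 and 2750 CPM against 2166 and 2201 CPM. The groups did not overlap, and the step between them was smaller than for Bgn. The mean was 2831 ± 114 against 2184 ± 25.1 CPM (SD, n = 2 each), and the log2 fold change was 0.44 ± 0.12 (SE; adjusted p 0.0219, edgeR). The call was lost in 5 of 17 alternatives: with the intron-length trend removed the log2 fold change was 0.21 (edgeR adjusted p 0.261), and without homeostatic 1 or homeostatic 2 the edgeR adjusted p was 0.169 or 0.124.

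Dcn, Ogn and Prelp were not called, and their deligated replicates differed more from each other than the groups did. For Dcn the means were 16499 ± 2470 against 16578 ± 165 CPM (SD, n = 2 each), and the log2 fold change of 0.05, which is fitted with TMM scaling that the CPM values do not carry, had a 95% interval of -0.22 to 0.32. Ogn was at 635 and 1036 CPM in the deligated and 741 and 849 CPM in the homeostatic libraries, with the homeostatic values inside the deligated range (log2 fold change 0.12, 95% interval -0.31 to 0.55). Prelp was at 256 and 389 CPM against 255 and 269 CPM (log2 fold change 0.35, 95% interval -0.04 to 0.74, edgeR adjusted p 0.165). These 3 members changed call or direction with the deligated library that was left out. Without deligated 1 all 3 were called higher, Dcn by 0.17, Ogn by 0.41 and Prelp by 0.60 on the log2 scale (edgeR adjusted p 0.0477, 0.000724 and 7.72e-06), and without deligated 2 Dcn was at -0.05 and Ogn at -0.21, neither called.

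**Figure D3:**
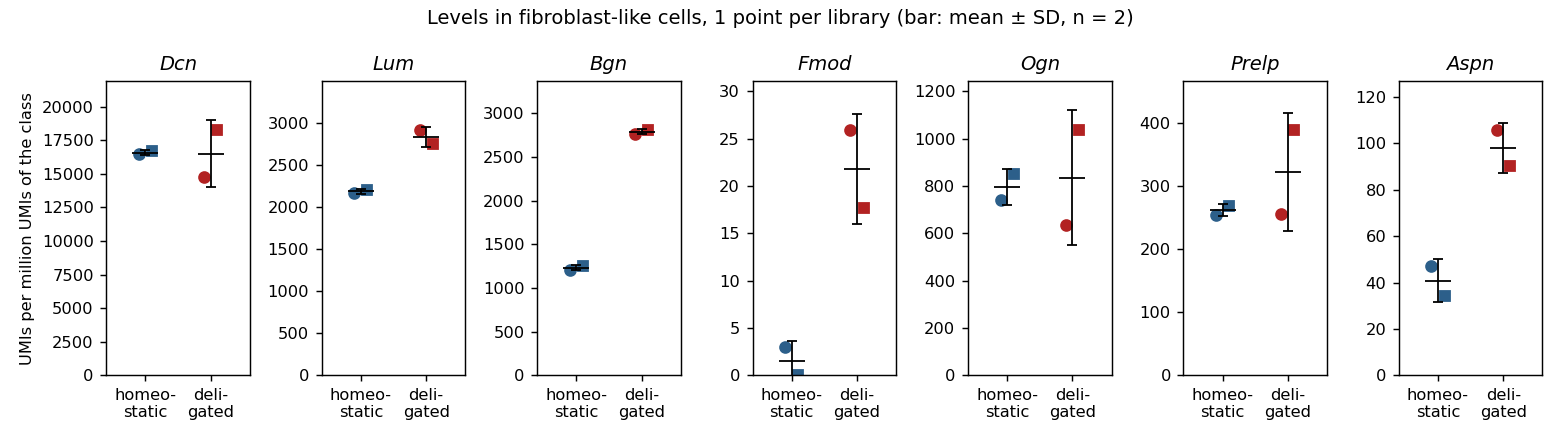
Level of each member in fibroblast-like cells in CPM, 1 symbol per library (circle replicate 1, square replicate 2), with the mean and SD of the 2 libraries of a group as bars. Deligated libraries lie above homeostatic ones for Lum, Bgn, Fmod and Aspn, and deligated 1 and 2 spread around or beyond the homeostatic values for Dcn, Ogn and Prelp.

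In mural-like cells Bgn and Prelp were higher after deligation and Aspn was not called. The class held 324, 449, 137 and 119 cells, in clusters 17 and 20 for most deligated cells and cluster 23 for 89.1% and 89.9% of the homeostatic ones, and all 11 mural markers were detected in it. All 7 members passed the filter on low counts, 2 were called higher and none lower, and of all 9881 genes tested 8.32% were called, 1.41% higher and 6.91% lower. Bgn was at 339 and 365 CPM against 215 and 180 CPM (log2 fold change 0.82 ± 0.15, SE; adjusted p 0.00463, edgeR). Prelp was at 52.8 and 52.2 CPM against 22.7 and 23.5 CPM (log2 fold change 1.17 ± 0.25, SE; adjusted p 0.0105, edgeR), from 15 UMIs in each homeostatic library. For both genes the deligated libraries lay above both homeostatic ones. The 10 fibroblast markers summed to 1033 and 911 against 463 and 452 CPM in mural-like cells, with 5 of the 10 higher in both deligated libraries and Dpp4 at 0, and the 5 erythroid markers to 34.8, 2933, 160 and 75.3 CPM. The part of either in the mural calls was not tested. Both calls were lost without either homeostatic library (edgeR adjusted p 0.0532 and 0.147 for Bgn, 0.132 and 0.119 for Prelp), the Bgn call also in cells thinned to 1000 UMIs (log2 fold change 0.56, edgeR adjusted p 0.225), and the Prelp call also under DESeq2 (adjusted p 0.247) and a stricter cell filter (edgeR adjusted p 0.134).

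Aspn in mural-like cells had a log2 fold change of -0.28 (95% interval -0.57 to 0.00, edgeR adjusted p 0.236), with both deligated values below both homeostatic ones. The change of Aspn therefore ran differently in the 2 classes: the log2 fold change was greater by 1.71 in fibroblast-like than in mural-like cells (SE 0.20, edgeR interaction, adjusted p 0.00218). In this test 1.08% of 11800 genes were called, 0.712% with a higher and 0.364% with a lower value, and no other member was. Without deligated 1 or deligated 2 the edgeR adjusted p of this difference was 0.0962 or 0.0914.

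The mural class holds both smooth muscle cells, which make the myosin Myh11, and pericytes. Cells with a Myh11 UMI numbered 264, 336, 96 and 86. As a description, Prelp stood at 59.0, 61.9, 23.7 and 25.1 CPM in cells with Myh11. In cells without Myh11 it stood at 3.82, 2.503, 17.7 and 12.4 CPM, from 1, 1, 2 and 1 UMIs in all. The homeostatic values without Myh11 thus rest on 2 and 1 UMIs, and no order for Prelp is read from these libraries. Bgn stood at 327, 334, 203 and 153 CPM with Myh11 and at 436, 521, 274 and 373 CPM without. Its higher value lay in cells without Myh11 in 4 of 4 libraries. Fmod UMIs in mural-like cells numbered 23, 22, 5 and 5 with Myh11 and 1, 2, 0 and 0 without. Cells with Myh11 also held most UMIs of the class, 2068731 against 261640 in deligated 1 and 556727 against 80472 in homeostatic 2. These Fmod counts therefore give no order of cells with and without Myh11. Aspn was high on both sides, at 467 to 621 CPM with and 567 to 671 CPM without Myh11. Cells without Myh11 had fewer UMIs (medians of 2685 to 4231.5, against 5385 to 7163), so a smooth muscle cell without a Myh11 UMI would fall among them, and no test was made.

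In endothelial-like cells Dcn, Lum and Bgn were called higher after deligation, at levels that for Dcn and Lum were also met in immune cells. These cells numbered 1888, 3082, 3439 and 3385, mostly in cluster 1 for the deligated and cluster 0 for the homeostatic libraries, with all 10 endothelial markers detected. Of the 7 members 4 passed the filter on low counts and 3 were called higher, against 35% of all 13172 genes called, 12.7% higher and 22.3% lower. Dcn was at 10.8 and 46.5 CPM against 8.50 and 4.66 CPM (log2 fold change 2.13, edgeR adjusted p 0.0455), and without deligated 2 the fold change was 0.81 on that scale. The call was lost under DESeq2 (adjusted p 0.114) and without homeostatic 2 (1.77, edgeR adjusted p 0.0678). The same libraries gave 12.5 and 50.3 against 3.43 and 3.20 CPM of Dcn in NK and innate lymphoid-like cells, which should not make it. Lum was at 4.00 and 14.4 CPM against 1.19 and 0.728 CPM in endothelial-like cells (log2 fold change 3.26, edgeR adjusted p 0.0118) and at 5.59 and 13.6 against 0.685 and 0.385 CPM in NK and innate lymphoid-like cells. In the deligated libraries, which make the call, endothelial Dcn was below the level of these immune cells and Lum was below it in deligated 1 and close to it in deligated 2, and the part of free RNA in both calls was not tested.

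Bgn in endothelial-like cells was at 25.5 and 23.4 CPM against 15.2 and 15.6 CPM (log2 fold change 0.69 ± 0.12, SE; adjusted p 0.00614, edgeR). The NK and innate lymphoid-like cells had 3.05 and 11.3 against 0.548 and 0.897 CPM. Per 100 Dcn UMIs, endothelial-like cells held 235, 50.3, 179 and 336 Bgn UMIs and NK and innate lymphoid-like cells 24.3, 22.5, 16 and 28. Endothelial-like cells thus held more Bgn per Dcn UMI than the immune cells in each library, while the Bgn level of the immune cells was also higher in both deligated libraries, and the part of free RNA in the endothelial difference was not tested. In endothelial-like cells the 10 fibroblast markers summed to 28.1 and 68.1 against 7.37 and 7.50 CPM (8 of 10 higher in both deligated libraries) and the 11 mural markers to 65.2 and 79.7 against 51.3 and 23.8 CPM (9 of 11 higher), none of either list at 0. Their part in it was not tested either. The call was made in 15 of 15 alternatives (log2 fold change 0.53 to 1.09).

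The change of Bgn was greater in fibroblast-like than in endothelial-like cells by 0.70 on the log2 scale (SE 0.16, edgeR interaction, adjusted p 0.0112), in a test that called 6.37% of 14308 genes, 4.51% with a higher and 1.86% with a lower value. The same test called Dcn at -1.70 and Lum at -2.60 (edgeR adjusted p 0.0174 and 0.00478), 2 genes with the immune-cell values given above. Without the library term none of the 3 was called, with edgeR adjusted p-values of 0.104 for Bgn, 0.233 for Dcn and 0.100 for Lum, the Bgn call was also lost without homeostatic 1 or homeostatic 2, and the Dcn call without homeostatic 2 (edgeR adjusted p 0.234).

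Schwann-like cells, the glia of nerve fibres, were few (29, 63, 47 and 46) and were not tested. Their Bgn level was 158 and 157 CPM in the deligated libraries (27 and 48 UMIs) and 57.6 and 78.7 CPM in the homeostatic ones (10 and 13 UMIs). Aspn and Fmod had no UMI in these cells in any library, and Dcn had 2, 17, 0 and 0. With so few cells and UMIs, no difference between the groups is read from the Bgn values.

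**Figure D4:**
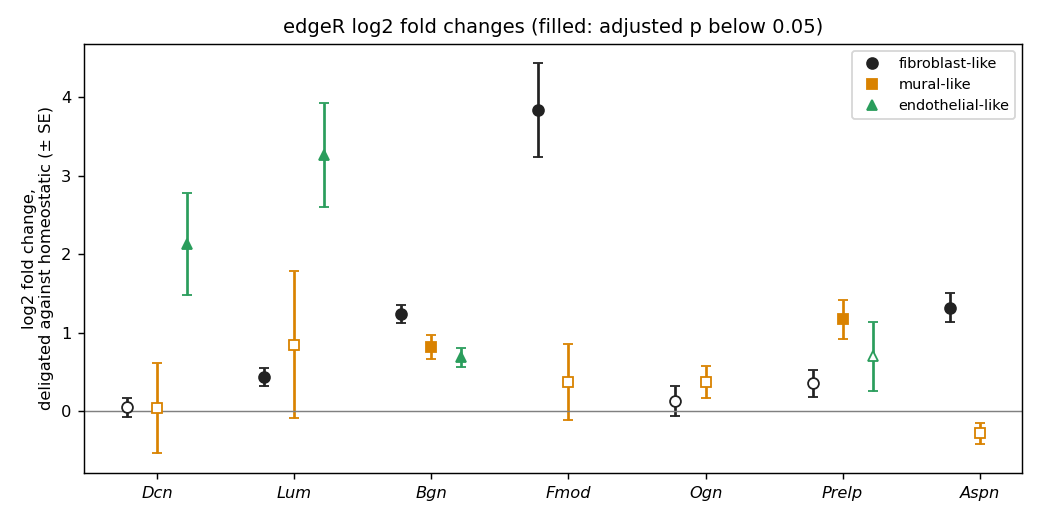
Log2 fold change, deligated against homeostatic, of each member in fibroblast-like, mural-like and endothelial-like cells with its standard error (edgeR quasi-likelihood fit, filled symbol for an adjusted p under 0.05, no symbol where the gene was not tested). Bgn is filled in all 3 classes, Aspn is filled at 1.32 in fibroblast-like cells and open at -0.28 in mural-like cells.

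Fibroblasts with Pi16 or Dpp4, a surface peptidase, are known from many tissues as the adventitial type around vessels and ducts. A fibroblast-like cell was counted as such when it had at least 1 UMI of either gene, which held for 148, 234, 39 and 32 cells (41.1%, 31.6%, 12.9% and 11.2% of the class). Of the NK and innate lymphoid-like cells 0% to 0.570% had a Pi16 UMI and 0.0475% to 0.755% a Dpp4 UMI. The gate depends on depth, so its shares are not compared, and gated cells differed between the groups in the gating genes themselves. In gated cells Pi16 stood at 559 and 435 CPM in the deligated and 1876 and 1237 CPM in the homeostatic libraries, and a Dpp4 UMI was present in 8.11%, 4.27%, 53.8% and 40.6% of them. Over all 4 libraries, with the library as a term, no member was called between gated and other cells at an adjusted p under 0.05, where 1.63% of 11108 genes were, 1.33% higher and 0.297% lower. In this edgeR test 3 members had an unadjusted p under 0.05, Aspn, Fmod and Ogn (log2 difference 1.33, 1.11 and 0.53, adjusted p 0.065, 0.0788 and 0.0951), and DESeq2 called Aspn (1.65, adjusted p 0.0184). Aspn was called in 5 of 8 alternatives: also with no filter on low counts (edgeR adjusted p 8.21e-17) and without deligated 1, deligated 2 or homeostatic 1 (0.0230, 0.0415 and 0.0464). Ogn was called with no filter and without deligated 2 (edgeR adjusted p 0.000276 and 0.0314), and Fmod with no filter (0.000736).

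The gate effect itself differed between the groups for 4 members, in an interaction test added after the data had been seen that called 2.75% of the genes, 0.954% higher and 1.8% lower. Aspn stood out in homeostatic glands. There it was at 190 and 107 CPM in cells with Pi16 or Dpp4 and at 23.0 and 23.4 CPM in the others, a log2 difference of 2.71 (SE 0.26, edgeR adjusted p 1.02e-08, with 8.74% of genes called in this contrast, 5.29% higher and 3.45% lower). In deligated glands it was at 131 and 124 CPM with and 86.7 and 72.1 CPM without, a log2 difference of 0.74 (SE 0.12, edgeR adjusted p 0.000541, with 1.81% of genes called, 1.31% higher and 0.495% lower). Gated cells were above the others in 4 of 4 libraries, and the difference between the groups was -1.97 (SE 0.28, edgeR adjusted p 4.78e-05). Compared within each kind of cell, deligated against homeostatic, Aspn was higher by 1.81 on the log2 scale in cells with neither gene (edgeR adjusted p 4.18e-05) and at -0.19 in cells with either (edgeR adjusted p 0.705). The homeostatic gated cells held 55 and 26 Aspn UMIs. With cells thinned to 1000 UMIs the difference was -1.32 (edgeR adjusted p 0.73), and without homeostatic 1 it was -1.42 (edgeR adjusted p 0.0779).

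Dcn, Lum and Bgn shifted in the opposite sense. In homeostatic glands Dcn was at 10973 and 13584 CPM in gated and 17396 and 17160 CPM in other cells, lower in both libraries (log2 difference -0.48, edgeR adjusted p 0.000126). In deligated glands it was at 14135 and 18019 CPM against 15212 and 18366 CPM, which was not called, and the difference between the groups was 0.46 (edgeR adjusted p 0.0214). For Lum the homeostatic values were 1412 and 1882 CPM in gated and 2294 and 2249 CPM in other cells, the deligated ones 2931 and 3028 against 2898 and 2603 CPM, and the difference was 0.62 (edgeR adjusted p 0.00976). Bgn was at 1010 and 1072 CPM in gated and 1244 and 1278 CPM in other homeostatic cells, which was not called (log2 difference -0.26, edgeR adjusted p 0.138). A Bgn UMI was present in 53.8% and 75% of these gated cells and in 97.0% and 96.5% of the others. In deligated cells Bgn was at 3190 and 3112 against 2454 and 2646 CPM, higher in gated cells (log2 difference 0.35, edgeR adjusted p 0.0308). The difference between the groups was 0.61 (edgeR adjusted p 0.008). Without either deligated library none of these 3 differences was called (edgeR adjusted p 0.0934 to 0.705), and that of Lum was also not called without homeostatic 1 (edgeR adjusted p 0.0603) or in cells thinned to 1000 UMIs (edgeR adjusted p 0.201).

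Fmod was at 33.0 and 29.1 CPM in gated and 20.6 and 11.6 CPM in other deligated cells, a log2 difference of 1.04 (SE 0.23, edgeR adjusted p 0.0113). In homeostatic cells it had 3 UMIs on either side in homeostatic 1 and none in homeostatic 2. On these few counts its difference between the groups of -1.48 was not called (SE 1.21, edgeR adjusted p 0.694). Ogn was higher in gated homeostatic cells, at 1232 and 1068 CPM against 658 and 816 CPM (log2 difference 0.67, edgeR adjusted p 0.00106), and its difference between the groups of -0.28 was not called (edgeR adjusted p 0.58). Prelp had no called effect of the gate in either group, with log2 differences of -0.04 and 0.03.

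**Figure D5:**
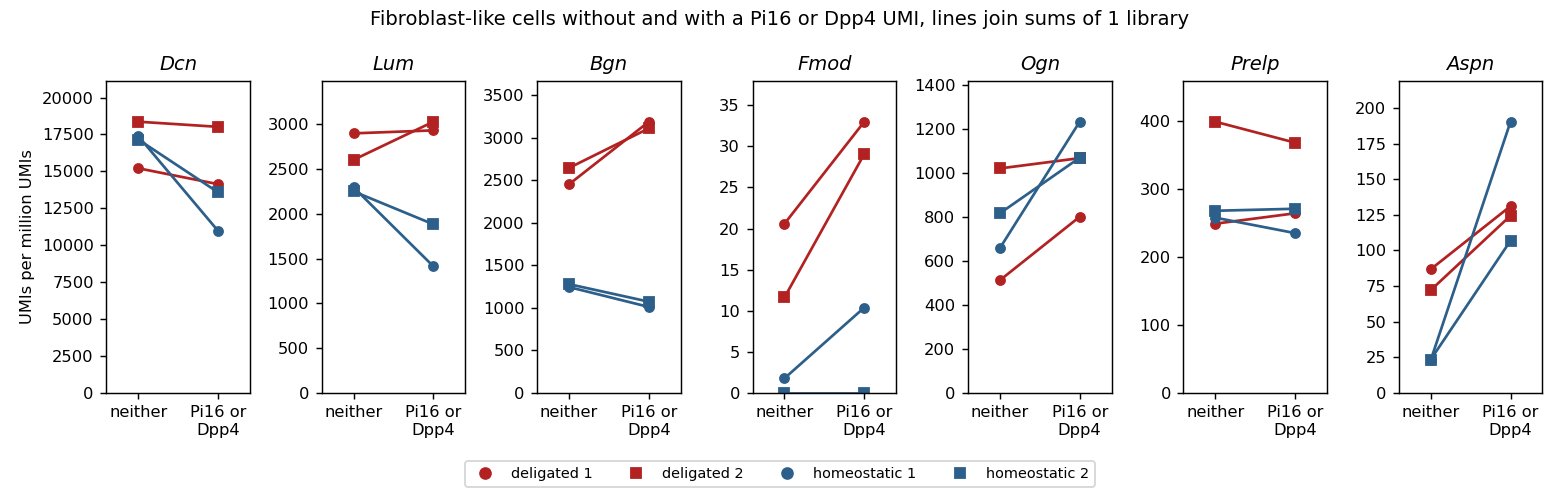
Level of each member in fibroblast-like cells with neither Pi16 nor Dpp4 UMIs and with at least 1 of either, in CPM, with a line joining the sums of 1 library. Aspn is near 23 in homeostatic cells with neither gene and at 107 and 190 in those with one, whereas deligated cells lie between 72.1 and 131.

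From cell to cell within the fibroblast-like class, rank correlations between members were low. In cells thinned to 1000 UMIs, Spearman's rho between pairs of members ran from -0.09 to 0.13 in deligated 1, -0.06 to 0.15 in deligated 2, -0.11 to 0.21 in homeostatic 1 and -0.14 to 0.18 in homeostatic 2, over 360, 721, 297 and 281 cells of 1 library each. The pair Dcn and Lum was at 0.01, 0.04, 0.21 and 0.14 in these libraries. Thinning leaves few counts per cell for several members, and the part of this in the low values was not tested. The values therefore do not show that the members vary independently. All 7 members were seen in 38, 31, 2 and 0 cells, where median depth ran from 13064.5 to 6540 UMIs in the same order.

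Across 20 sums, of 5 classes in 4 libraries, the pattern of each member was compared with 11198 other genes by Pearson's r of log2(CPM + 1), as a description of points that share libraries and clusters. The closest genes to Dcn were Apod (r 0.994), Mmp3 (0.988) and Srpx (0.987), and those to Lum were Cxcl14 (0.990), Mmp2 (0.986) and Mmp3 (0.982). Bgn was closest to the fibrillar collagen gene Col5a2 (0.990), Ccdc80 (0.989) and C1ra (0.987). Ogn was closest to Col5a3, Zfhx4 and Lrp1 (0.995, 0.995 and 0.994), and Prelp to Gas1 and Kdelr3 (0.988 and 0.984). Fmod was closest to Tgfb3 (0.927), Postn (0.924), which encodes periostin, and Gtf2h5 (0.918), but its own mean of 4.17 CPM was below the 5 CPM asked of the other genes, and outside fibroblast-like and mural-like cells no sum of a named class held more than 3 UMIs. The genes closest to Aspn were those of mural cells, Heyl (0.990), a Notch target, Ndufa4l2 (0.989) and Vtn (0.988). Among the members, Dcn and Lum were most alike (r 0.981), and Lum and Aspn least (r 0.377). The neighbours Aspn and Ogn had r 0.802 and the neighbours Prelp and Fmod 0.756.

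The counts that follow, for other genes of the pathway in fibroblast-like cells, are to be read against 8.59% of all 11529 genes called higher, 18.1% called lower and a median log2 fold change of 0.008. Of the other 11 genes of the family, 7 were tested, 3 were called higher and none lower, with a median log2 fold change of 0.40. Kera, which encodes the corneal proteoglycan keratocan and follows Lum on chromosome 10, was at 72.4 and 13.6 CPM against 7.55 and 8.03 CPM (log2 fold change 2.51 ± 0.79, SE; adjusted p 0.0424, edgeR), and in deligated 1 the tenth of cells with most UMIs held 76.7% of it. Ecm2, the neighbour of Aspn, was at 143 and 139 against 119 and 97.9 CPM (log2 fold change 0.44, edgeR adjusted p 0.0452), and Podn, podocan, was at 182 and 213 against 153 and 159 CPM (0.40, adjusted p 0.0464). Omd, which lies between Aspn and Ogn, was at 28.6 and 32.2 against 30.2 and 34.8 CPM and was not called, nor were Epyc, Tsku and Chadl.

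The enzymes that build the sugar chains were read against the 26.7% of all genes called, 8.59% higher and 18.1% lower. Of 7 genes for the common linker 1 was called, Xylt1, which starts the chain, lower by 1.05 on the log2 scale (edgeR adjusted p 0.0163). Of 13 tested genes for chondroitin and dermatan sulfate 2 were called higher and 3 lower, with a median log2 fold change of -0.00093. The largest changes were in Chsy3 (log2 fold change -5.46), Ust (-2.81) and Csgalnact1 (-1.02), which extend, sulfate or start the chain, and in Chst14 (0.86), which sulfates dermatan (edgeR adjusted p 4.93e-06, 1.34e-05, 0.000743 and 0.0241). The 3 that were lower have introns of 353, 309 and 373 kb in total and Chst14 has none, and the part of intron length in them was not tested. Of 5 tested genes for keratan sulfate 1 was called, Chst2, higher by 0.72 (edgeR adjusted p 0.04).

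Of 14 tested genes for fibrillar collagens and their processing enzymes, 10 were called higher and 1 lower (8.59% and 18.1% of all genes), with a median of 0.67 against 0.008 over all genes. Lox, the enzyme that cross-links collagen, was at 177 and 139 against 24.7 and 26.8 CPM (log2 fold change 2.68 ± 0.20, SE; adjusted p 1.02e-05, edgeR). Col1a1, the main chain of collagen I and a marker used to name the class, was at 5300 and 3808 against 1569 and 1593 CPM (1.59, adjusted p 0.000114), Col11a1 had a log2 fold change of 2.68 from 2 and 3 homeostatic UMIs (adjusted p 0.00452), and Tll1, a procollagen protease with 184 kb of introns, one of -3.29 (adjusted p 0.000541). All 4 p-values are from edgeR.

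Of the 6 TGF-beta ligands and receptors 2 ligands were called higher and 2 receptors lower, where 8.59% of all genes were called higher and 18.1% lower. The same shares hold for the 3 lists that follow. Tgfb3 was at 58.9 and 39.2 against 10.6 and 11.2 CPM (log2 fold change 2.22 ± 0.28, SE; adjusted p 0.000317, edgeR) and Tgfb1 at 43.6 and 45.9 against 29.2 and 33.2 CPM (0.58, adjusted p 0.0263). Tgfbr3 and Tgfbr1 had log2 fold changes of -1.03 and -0.68 (edgeR adjusted p 0.000273 and 0.0047). Of 6 tested receptors reported to bind decorin or biglycan 2 were called higher and 3 lower, among them Egfr (log2 fold change -1.47), Tlr4 (-1.21), Igf1r (-0.98) and Kdr (0.96), with edgeR adjusted p-values of 4.08e-05, 0.000291, 0.000454 and 0.048. Kdr, an endothelial marker, was at 14.3 and 24.0 against 12.1 and 8.56 CPM here and at 1945 to 2373 CPM in endothelial-like cells. The 10 endothelial markers, none at 0 and 4 higher in both deligated libraries, summed to 141, 292, 161 and 146 CPM in fibroblast-like cells, and their part in the Kdr call was not tested. Of 6 tested proteases that can cut these proteoglycans 3 were called higher and none lower: Mmp2 at 1028 and 940 against 545 and 559 CPM (log2 fold change 0.89), Mmp3 (0.79) and Adamts1 (0.54), with edgeR adjusted p-values of 0.000575, 0.00695 and 0.0365. Of 12 other proteoglycans 3 were called higher and 2 lower, with Gpc6 (-2.48) and Gpc3 (-1.40) falling and Sdc3 (1.61) and Gpc1 (1.33) rising (edgeR adjusted p 3.47e-06, 0.00096, 0.000245 and 0.0202). Of the genes named here as lower, Gpc6 has 1044.8 kb of introns, Gpc3 339 kb, Xylt1 283 kb, Igf1r 264 kb, Tgfbr3 177 kb, Egfr 155 kb, Tlr4 97.1 kb and Tgfbr1 55.2 kb, and the part of intron length in them was not tested.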

How the data were processed

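Per the file headers, the deposited matrices hold UMI counts per gene and barcode from Cell Ranger 6.0.1 (deligated) and 7.0.0 (homeostatic); the submitters' processing notes name Cell Ranger 6.0.1, Seurat and mm10 throughout. Whether intronic reads were counted is not given in the sources used here. Barcodes had at least 500 UMIs as deposited. Cells with at least 300 genes and at most 10% mitochondrial UMIs were kept, and doublets scored against simulated ones were taken out at a rate of 0.8% for each 1000 cells, and each cell was scaled to a total of 10000. Clustering used 3000 variable genes without the members, 30 principal components, 20 neighbours and Leiden resolution 1 (scanpy 1.11.5). A cluster was named from at least 3 fixed markers in 10% of its cells at 2-fold or more.

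Counts were summed per library and class, the library being the replicate, and tested with edgeR 4.0.16 (TMM, filterByExpr, quasi-likelihood, Benjamini-Hochberg over all genes tested). Gate and class interactions had the library as a term. DESeq2 1.42.0, other filters, clusterings, thinning to 1000 UMIs, removal of the intron-length trend and omission of each library were alternatives. The tests were tested on simulated data. The members, gene lists and tests were chosen with earlier results of these data known. All members were described. The named genes of other lists are up to 4 called genes per list with the largest change in fibroblast-like cells, and the 3 genes most like each member, of which 1 is not reported here. Gene identifiers matched GENCODE M21 for 31011 of 31053 genes. Intervals for counts and shares are exact at 95% and cover counting error only.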

Additional observations from a re-analysis of the deposited data

Results flagged for a closer look

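All 7 members were tested for a difference of their effect in each of 3 comparisons (edgeR interaction, adjusted p under 0.05). The gate effect differed between the groups for 4 of 7 members, where 2.75% of all genes were called, the deligation effect between fibroblast-like and mural-like cells for 1 of 7 (1.08% of all genes), and that between fibroblast-like and endothelial-like cells for 3 of 7 (6.37%). Over the alternatives 10, 2 and 6 of these calls on members were lost. Between deligated and homeostatic glands, the log2 difference of fibroblast-like cells with Pi16 or Dpp4 from the others was greater after deligation for Dcn by 0.463, for Lum by 0.624 and for Bgn by 0.612, and for Aspn it differed by -1.97. This gate effect on Aspn pointed upward in 4 of 4 libraries, and its difference between the groups was not called in cells thinned to 1000 UMIs (-1.32, edgeR adjusted p 0.73) or without homeostatic 1 (-1.42, edgeR adjusted p 0.0779). The interaction was added after the data had been seen, and in homeostatic glands it rests on 39 and 32 gated cells.

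Between cell classes, the log2 fold change after deligation was greater in fibroblast-like than in mural-like cells for Aspn by 1.71. Against endothelial-like cells the difference was 0.703 for Bgn, -1.70 for Dcn and -2.60 for Lum. For Dcn and Lum the deligated endothelial levels were below or close to those of NK and innate lymphoid-like cells of the same library.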

How the results depend on the processing

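Over 46 results for single members, 454 alternative values were computed: 376 kept direction and side of the threshold, 33 lost the call, 18 gained one and 27 changed direction. The number of genes called fell from 3081 in fibroblast-like cells to 1820 with DESeq2, 1086 with cells thinned to 1000 UMIs, 2004 with the intron-length trend removed and 1415 in cells with a Pi16 or Dpp4 UMI. In mural-like cells it went from 822 to 412, 242 and 457 under the first 3 of these and to 1320 with no filter on low counts, and in endothelial-like cells from 4610 to 2536 after thinning. For the gate it went from 181 to 83 after thinning and 670 with no filter, and for the difference of the gate effect between groups from 306 to 46 after thinning. Without the library term the class differences fell from 127 to 10 (mural) and from 911 to 151 (endothelial). Leaving out 1 library each gave 1618 to 4530, 265 to 1035 and 2073 to 7747 genes in the 3 classes, 17 to 250 for the gate, 119 to 408 for its difference, and 1 to 117 and 297 to 1509 for the class differences. With 1 library left in a group, that library is assumed to vary like the others.

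In fibroblast-like cells, Lum was not called after thinning (log2 fold change 0.41), with the intron-length trend removed (0.21) or in cells with neither Pi16 nor Dpp4 (0.32), Fmod not with DESeq2 (3.94), and Prelp was called with no filter (0.39). In cells with Pi16 or Dpp4 Ogn was at -0.26 and Aspn at -0.19, and in cells with neither Dcn was at -0.0047. Over single omissions the log2 fold changes ran from -0.049 to 0.17 for Dcn, 0.36 to 0.53 for Lum, 2.89 to 9.58 for Fmod, -0.21 to 0.41 for Ogn and 0.087 to 0.60 for Prelp. In mural-like cells Dcn ran from -1.14 to 1.34 and Lum from -0.20 to 6.95, Dcn was at -0.32 at a clustering resolution of 2, and Ogn at -0.078 after thinning. With a per-cell marker gate both Dcn and Lum were called (2.39 and 2.41, edgeR adjusted p 0.000153 and 0.0426). Endothelial Prelp ran from -0.10 to 1.19 and was called in 3 of 15 alternatives: without deligated 1 (1.19), at resolution 2 (1.74) and with the marker gate (1.38; edgeR adjusted p 5.08e-05, 0.0216 and 0.0266). In the gate contrast Bgn was at -0.18 after thinning and Prelp at -0.00097 with no filter, and omissions gave -0.041 to 0.17 for Bgn, -0.025 to 0.059 for Prelp and -0.25 to 0.031 for Lum. For its difference between groups they gave -0.063 to 0.14 for Prelp, -1.78 to 1.04 for Fmod and -0.59 to 0.029 for Ogn. For the class differences they gave -1.05 to 1.16 for Dcn, -7.17 to 0.99 for Lum and -0.56 to 0.20 for Ogn (mural), and -0.48 to 0.25 for Prelp, -0.77 to 0.40 for Aspn and -0.078 to 7.61 for Fmod (endothelial). The cause was not tested for any of these, beyond the smaller numbers of counts and libraries that thinning and omission leave.

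The labels do not say that equal replicate numbers pair libraries, and deviations of same-numbered libraries correlated at -0.03, -0.07 and -0.11 in fibroblast-like, mural-like and endothelial-like cells. With the number as a replicate block, 3315, 687 and 4350 genes were called, and no call on a member changed. In endothelial-like cells, with the numbers crossed between the groups, a pairing added after the data had been seen, 5162 genes were called. Depth limits Fmod most, with 18 and 7 UMIs in all kept homeostatic cells.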
